A study of Mus musculus with 10 samples.

Results

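The clustered, replication-dependent histone genes were followed in 10 RNA sequencing libraries of a mouse mammary carcinoma model of metastasis. Members were the genes of the deposited gene table whose names begin with Hist1, Hist2, Hist3 or Hist4 and go on with a histone class, without annotated relics ending in -ps. They came to 69 of 55418 named genes: 6 of linker histone H1, 20 of H2A, 18 of H2B, 12 of H3 and 13 of H4. After a filter on low counts 60 members were tested, namely 4 H1, 17 H2A, 15 H2B, 11 H3 and 13 H4 genes.

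Core histones H2A, H2B, H3 and H4 form the protein spool of the nucleosome, and H1 binds the DNA between nucleosomes. Their clustered genes are transcribed mainly in S phase, when new DNA has to be packaged. Most of their mRNAs have no poly-A tail: they end after a short stem-loop that the stem-loop binding protein holds and that the U7 RNA complex uses as the guide for cutting. Some of these genes can also give longer, polyadenylated mRNAs.

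The metastasis group held lines 5, 3 and 7, grown from lung metastases. The CTC group held lines 1, 3 and 6 of circulating tumour cells, and the primary group held lines 5, 7 and 8 from fat pad xenografts. Each of these 9 derived lines came, per the labels, from NSG (NOD-SCID-GAMMA) mice that had received 4T1-hHER2-Luc cells orthotopically, and each was traced by its label to circulating tumour cells. NSG mice are immunodeficient hosts that lack T, B and NK cells. The parental line, 4T1-hHER2, had 1 library: it is a BALB/cfC3H mammary carcinoma line, and a lentivirus gave it human HER2 and luciferase, which all 10 libraries share. Each library is 1 line in culture, and the labels do not tell whether lines with the same number came from the same mouse, so the p-values cover the spread between lines in culture and nothing else.

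Libraries held 79869760 to 97722716 estimated counts, of which the histone members took 2230 to 14220, or 0.00321% to 0.0184% of the counts on named genes. The labels call the molecule poly-A RNA, while the library protocol names a kit for total RNA, and no source used here settles which was sequenced. If it was poly-A RNA, the levels given here cover the captured part of histone mRNA and not all of it. The median tested member had a mean level of 0.587 CPM (counts scaled to library size with TMM factors), against 6.92 CPM for the median gene tested. Epithelial Krt18 stood at 303 to 1462 CPM and Epcam at 15.8 to 203.5 CPM in the 10 libraries. Of 11 markers of host cells, Hbb-bs and Hba-a1 of red blood cells and Sftpc of lung epithelium were listed at 0 in each library. The other lung epithelium markers were at or near 0: Sftpb reached 0.0818 CPM in metastasis 7, 0.234 CPM in primary 8 and 0.241 CPM in the parental line and was at 0 elsewhere, and Scgb1a1 reached 0.0262 CPM in metastasis 3 and 0.0789 CPM in primary 7 and was at 0 elsewhere. The summed level of the 11 markers was 13.3 to 272 CPM in metastasis, 10.46 to 142 CPM in CTC, 5.43 to 59.99 CPM in primary lines and 6.02 CPM in the parental line, most of it from Pdgfra; its part in the results was not tested.

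A total of 56 members lie in the Hist1 cluster on chromosome 13, 10 in Hist2 on chromosome 3, 2 in Hist3 on chromosome 11 and 1 in Hist4 on chromosome 6. The stem-loop at the 3′ end is shown for 7 members because it sets these mRNAs apart from other mRNAs and was not used to choose them. Each line gives the mRNA-sense sequence of an annotated GENCODE M21 transcript (GRCm38), with the stem-loop in capitals and a few flanking bases.
Hist1h1c: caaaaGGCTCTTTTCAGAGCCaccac
Hist3h2a: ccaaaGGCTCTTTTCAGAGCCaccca
Hist1h2bb: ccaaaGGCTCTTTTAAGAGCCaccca
Hist2h3c2: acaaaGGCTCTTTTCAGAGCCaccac
Hist1h4d: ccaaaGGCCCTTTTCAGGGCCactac
Hist4h4: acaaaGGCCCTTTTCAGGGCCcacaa
Hist1h4i: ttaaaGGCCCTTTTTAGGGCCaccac
A stem-loop was found within 200 bases after the stop codon in 44 members. The form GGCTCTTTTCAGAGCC occurred in 26 members, 3 of H1, 10 of H2A, 8 of H2B, 5 of H3 and 0 of H4. The form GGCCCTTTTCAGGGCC occurred in 7 members, all of them H4 genes. Of the 44, the annotated transcript of 22 ended within 100 bases of the stem-loop and that of 22 ran over 100 bases past it. In 17 further members the annotation stops at most 60 bases after the stop codon, so that the stem-loop could not be seen, 6 showed none, and 2 members are annotated pseudogenes with no coding frame (Hist1h2aj and Hist1h2al).

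Promoters were set beside these ends because most members moved together across the libraries. RefSeq promoters (GRCm38.p6, 250 bases before to 50 after the start) were found for 61 members, 62 in all, and searched on both strands for 4 short motifs. The octamer ATTTGCAT, bound by Oct-1, was in 7 of 17 H2A and 7 of 17 H2B promoters, in 0 of 6 H1, 0 of 10 H3 and 0 of 12 H4 promoters, and in 1.7% of all 32851 promoters of the table. CCAAT was in 53 of the 62 promoters (85.5%, against 37.4% of all promoters), although in 3 of 12 H4 promoters. TATAAA was in 35 of 62 (56.5%, against 13.6%). AAACACA, a motif known from H1 genes, was in 5 of 6 H1 promoters, against 7.2% of all promoters. The 250 bases before the start of an H1, an H2A and an H4 gene are shown, with matches to these motifs in capitals.
Hist1h1c, chr13:23738557-23738806, plus strand: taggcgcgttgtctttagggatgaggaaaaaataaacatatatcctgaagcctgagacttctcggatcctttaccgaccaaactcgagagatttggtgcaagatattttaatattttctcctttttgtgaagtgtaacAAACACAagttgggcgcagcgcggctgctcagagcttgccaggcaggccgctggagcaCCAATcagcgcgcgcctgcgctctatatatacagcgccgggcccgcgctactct
Hist3h2a, chr11:58954435-58954684, plus strand: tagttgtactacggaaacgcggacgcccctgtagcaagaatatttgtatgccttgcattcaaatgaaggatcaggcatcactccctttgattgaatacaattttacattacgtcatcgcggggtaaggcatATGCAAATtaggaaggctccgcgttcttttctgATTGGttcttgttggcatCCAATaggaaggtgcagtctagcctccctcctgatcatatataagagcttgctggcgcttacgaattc
Hist1h4d, chr13:23581318-23581567, plus strand: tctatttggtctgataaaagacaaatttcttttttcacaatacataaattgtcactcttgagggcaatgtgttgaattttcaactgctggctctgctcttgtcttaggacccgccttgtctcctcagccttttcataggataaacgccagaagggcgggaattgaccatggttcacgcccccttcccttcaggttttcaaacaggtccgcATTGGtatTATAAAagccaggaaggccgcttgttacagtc
In the H2A promoter shown the octamer stands on the minus strand, as ATGCAAAT. The H4 promoter shown is 1 of the 3 H4 promoters with CCAAT, which stands there on the minus strand, as ATTGG. A match is a run of letters and not a measured binding site. In 12 places an H2A and an H2B gene start back to back, with 176 to 306 bases between their starts, so that a pair shares its upstream DNA.

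The metastasis lines had the lowest mean histone mRNA level of the derived groups, and for H2A, H3 and H4 their levels lay below those of each other derived line. The summed level of all 69 members was 51.6, 99.5 and 30.4 CPM in metastasis 5, 3 and 7. It was 189.7, 105 and 96.5 CPM in CTC 1, 3 and 6. In primary 5, 7 and 8 it was 99.8, 63.9 and 134.5 CPM, and in the parental line 53.0 CPM. Metastasis and primary sums overlapped, because metastasis 3 lay above primary 7. Means were 60.5 ± 35.4 CPM in metastasis, 130.4 ± 51.5 CPM in CTC and 99.4 ± 35.3 CPM in primary lines (SD, n = 3 each). A single H1 gene, Hist1h1c, gave 20.95% to 55.9% of the sum. Without it the sum was 22.7, 51.6 and 18.2 CPM in metastasis 5, 3 and 7, 99.0, 76.4 and 71.0 CPM in CTC 1, 3 and 6, 74.2, 50.5 and 96.1 CPM in primary 5, 7 and 8, and 34.97 CPM in the parental line.

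Summed H3 levels were 1.496, 6.495 and 2.43 CPM in metastasis 5, 3 and 7, 11.7, 12.8 and 11.6 CPM in CTC 1, 3 and 6, 12.9, 9.31 and 15.7 CPM in primary 5, 7 and 8, and 3.92 CPM in the parental line. Summed H4 levels were 2.62, 4.48 and 3.05 CPM in metastasis, 11.8, 10.3 and 13.8 CPM in CTC and 10.46, 7.41 and 12.7 CPM in primary lines, in the same order, and 7.22 CPM in the parental line. For both classes each metastasis line lay below each CTC and each primary line. H2A sums showed the same separation, with 6.55, 10.9 and 3.93 CPM in metastasis 5, 3 and 7, against 14.8 to 21.7 CPM in CTC and 12.7 to 22.9 CPM in primary lines. H1 sums did not separate: they ran from 12.4 to 49.8 CPM in metastasis, 28.2 to 96.4 CPM in CTC and 14.2 to 39.9 CPM in primary lines. H2B sums overlapped too. Metastasis 5 and 7, at 11.7 and 8.62 CPM, lay below each CTC and primary line. Metastasis 3, at 27.8 CPM, lay above CTC 6 (23.5 CPM), primary 5 (27.4 CPM) and primary 7 (20.3 CPM).

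**Figure D1:**
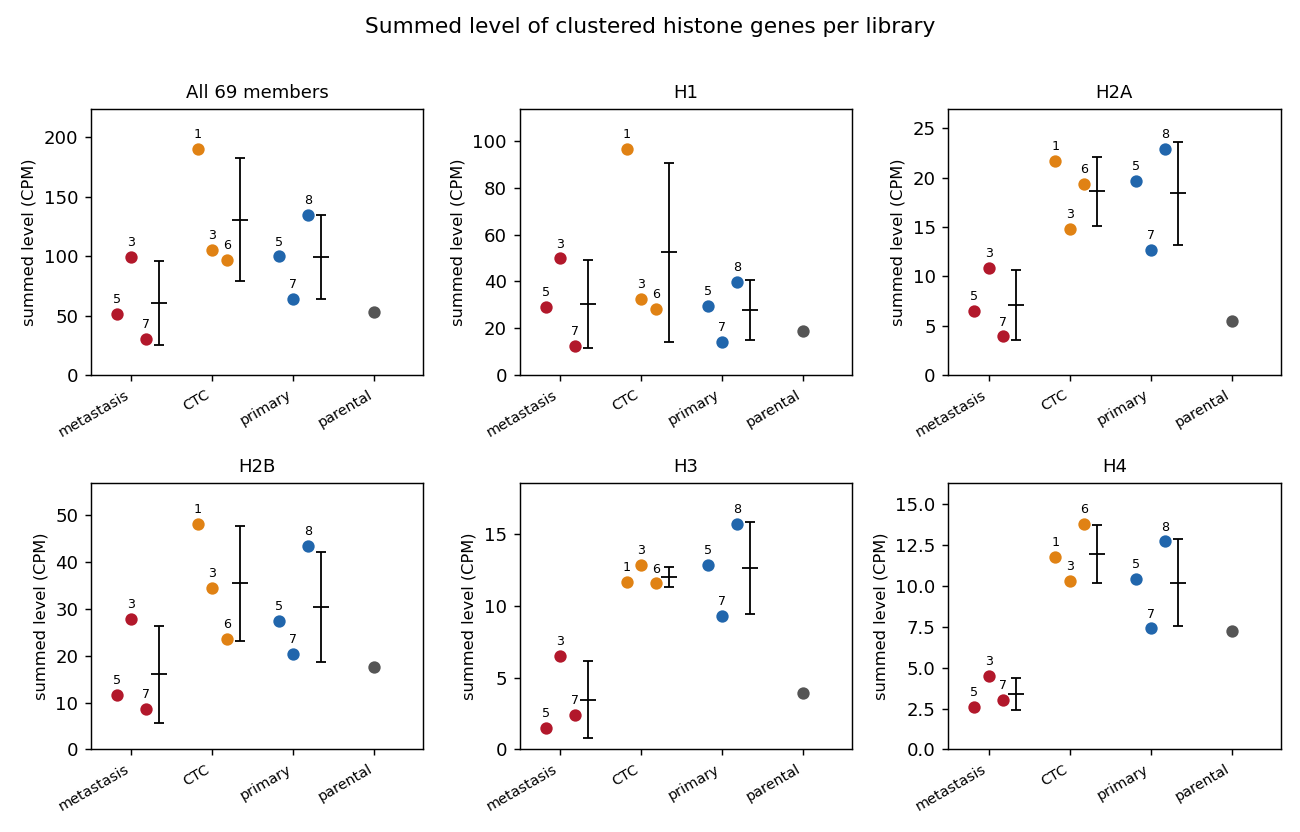
Summed level in CPM (vertical axis, from 0) of all 69 members and of each histone class, by group; a point is a library with its line number, and the bar beside each derived group is its mean ± SD (n = 3). The metastasis points lie below the CTC and primary points for H2A, H3 and H4, while for H1 and H2B the groups overlap.

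The first question was whether lines from lung metastases differed from lines of the primary tumour. Of the 60 tested members, 56 were lower in metastasis than in primary lines, where 49.5% of all 19936 genes tested were lower. At an unadjusted p under 0.05, 36 members were lower, against 4.92% of all genes tested. In 37 members the metastasis lines all lay below the primary lines, against 7.27% of all genes tested. The median log2 change of the members was -1.54, against 0.01 over all genes. By class the median was -1.12 for H1, -1.61 for H2A, -1.33 for H2B, -1.78 for H3 and -1.97 for H4. After Benjamini-Hochberg adjustment over all genes, edgeR's quasi-likelihood test called 0 members and 0.0% of all genes tested. With limma-voom it was 0 members and 0 of 19936 genes. DESeq2 called 10 of the 56 members to which it gave an adjusted p, against 1.2% of all genes with such a value: 4 H2A genes, Hist2h3c2 and 5 H4 genes, all of them lower. The edgeR count at an unadjusted p under 0.05 fell to 23 without metastasis 5 and to 21 without metastasis 7. No share of all genes stands beside these counts, so the fall cannot be read as particular to the members.

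All 11 tested H3 genes were lower in metastasis than in primary lines, and 10 of them had an unadjusted p under 0.05. Hist2h3c2 (ENSMUSG00000081058.5, chr3:96238108-96239127, minus strand) encodes an H3.2 protein. It had 0.143, 0.576 and 0.136 CPM in metastasis 5, 3 and 7, 1.29, 1.15 and 1.53 CPM in CTC 1, 3 and 6, 1.44, 1.38 and 2.23 CPM in primary 5, 7 and 8, and 0.468 CPM in the parental line. The metastasis lines lay below each of the other 6 derived lines without overlap. The log2 change of metastasis against primary lines was -2.55 (SE 0.63), with an adjusted p of 0.594 in edgeR's quasi-likelihood test and 0.00887 in DESeq2. Its neighbour Hist2h3c1 (chr3:96246685-96248509) had 0.234, 1.35 and 0.232 CPM in metastasis 5, 3 and 7, against 1.81, 1.92 and 2.94 CPM in primary 5, 7 and 8. Every 50-base stretch of Hist2h3c1 also occurs in another gene and 63.5% of those of Hist2h3c2 do. Hist2h3c1 also shares exon bases with Gm20634, so reads may have been split between copies or with this overlapping gene. Hist1h3d (chr13:23575763-23577011), with 24.8% of such stretches shared, had 0.234, 0.707 and 0.395 CPM in metastasis 5, 3 and 7, 1.24, 1.67 and 1.63 CPM in CTC 1, 3 and 6, and 1.63, 0.829 and 2.16 CPM in primary 5, 7 and 8. Its metastasis values were again below each CTC and primary value.

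All 13 H4 genes were lower in metastasis than in primary lines, 11 of them at an unadjusted p under 0.05. Hist1h4i (chr13:22040636-22041362) carries the highest H4 level. It stood at 0.937, 1.94 and 0.695 CPM in metastasis 5, 3 and 7, 4.33, 2.68 and 2.56 CPM in CTC 1, 3 and 6, 1.94, 2.71 and 3.23 CPM in primary 5, 7 and 8, and 1.81 CPM in the parental line. Metastasis 3 reached the level of primary 5, so these 2 groups met, while the CTC lines lay above all metastasis lines. Hist1h4d (chr13:23581598-23582735) and Hist4h4 (chr6:136801553-136804415) were chosen after their values were seen, as members with few shared stretches (10.2% and 8.5%) that DESeq2 called. Hist1h4d had 0.273, 0.183 and 0.300 CPM in metastasis 5, 3 and 7, 1.39, 1.21 and 2.35 CPM in CTC 1, 3 and 6, and 1.255, 0.618 and 1.11 CPM in primary 5, 7 and 8. Hist4h4, the lone Hist4 gene, had 0.104, 0.0786 and 0.0682 CPM in metastasis 5, 3 and 7, 0.400, 0.619 and 0.534 CPM in CTC 1, 3 and 6, and 0.669, 0.263 and 0.522 CPM in primary 5, 7 and 8, from 5 to 48 counts per library. In both genes all 3 metastasis lines, metastasis 3 included, were below every CTC and primary line.

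**Figure D2:**
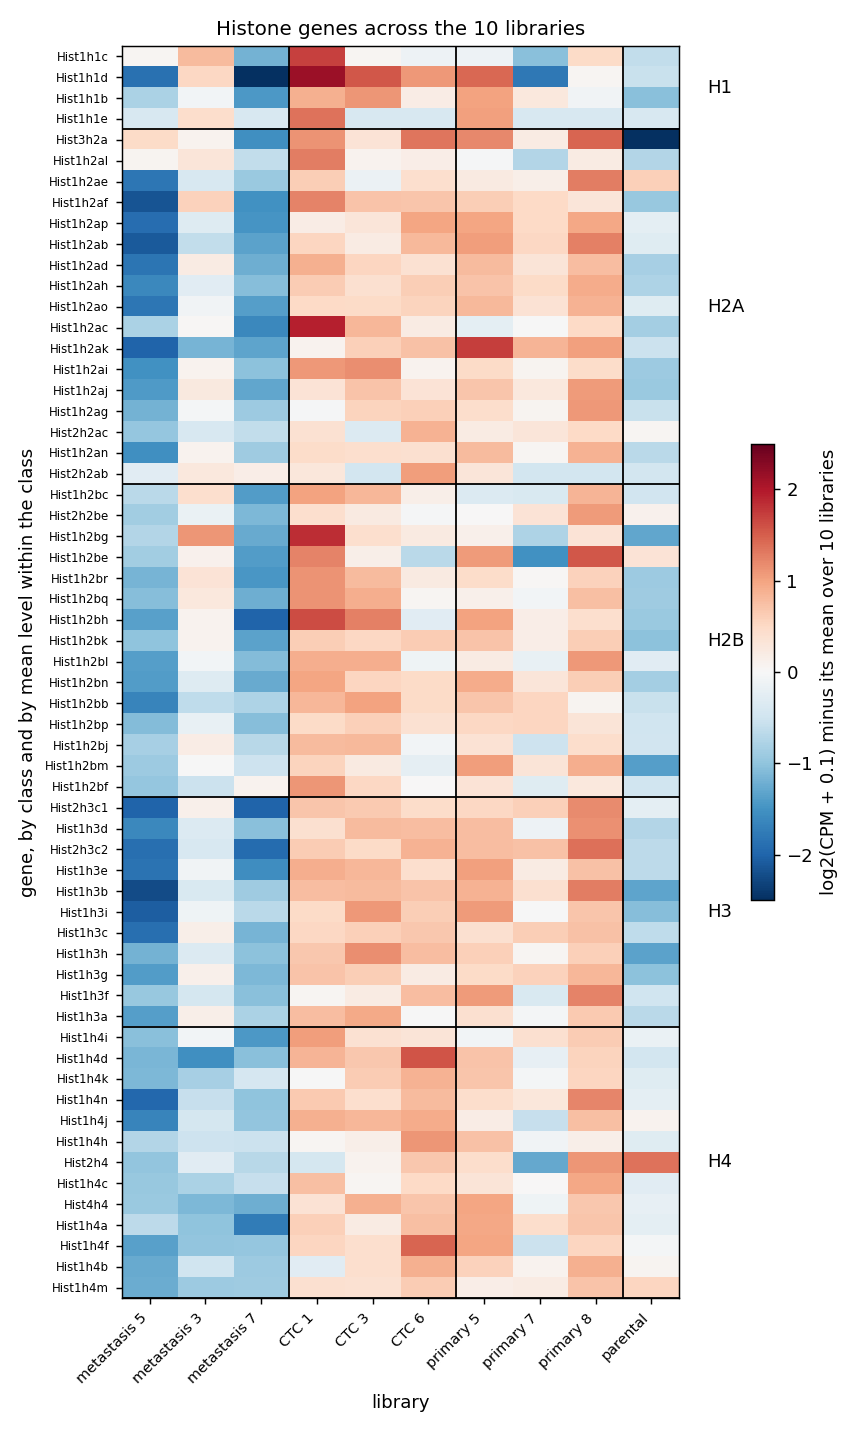
Level of the 60 tested members (rows, by class and by mean level) in the 10 libraries (columns), as log2(CPM + 0.1) minus the mean of the gene over the 10 libraries; red is above and blue below that mean. The columns of metastasis 5 and 7 are blue for nearly all genes, and the column of metastasis 3 is blue mainly among the H4 genes.

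H2A and H2B genes gave a wider range. Among H2A genes 15 of 17 were lower in metastasis than in primary lines, 9 of them at an unadjusted p under 0.05, with log2 changes from -3.86 to 0.89. The most negative was Hist1h2ak (chr13:21753435-21753827), chosen after its values were seen. It had 0.0130, 0.105 and 0.0818 CPM in metastasis 5, 3 and 7, or 1, 8 and 6 counts, against 1.41, 0.724 and 0.825 CPM in primary 5, 7 and 8. It shares exon bases with Gm44454, and so do many H2A genes with other predicted genes: 26 members overlap an exon of another gene, and no source used here tells whether counting used strand. Hist1h2al, a processed pseudogene at chr13:51202727-51203065 far from the cluster, had 1.39, 1.66 and 0.832 CPM in metastasis 5, 3 and 7 and 1.297, 0.763 and 1.54 CPM in primary 5, 7 and 8. These values overlapped.

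Among H2B genes 14 of 15 were lower in metastasis than in primary lines, 6 of them at an unadjusted p under 0.05. Hist2h2be (chr3:96221119-96223738), of which no 50-base stretch occurs elsewhere (0.0%), is annotated with a long 3′ end and a poly-A signal. It had 3.19, 5.24 and 2.63 CPM in metastasis 5, 3 and 7, 7.87, 6.89 and 5.76 CPM in CTC 1, 3 and 6, 5.94, 7.43 and 12.4 CPM in primary 5, 7 and 8, and 6.33 CPM in the parental line. The metastasis lines lay below all 7 other libraries, with a log2 change against primary lines of -1.22 (SE 0.42, edgeR quasi-likelihood adjusted p 0.594). Hist1h2bc (chr13:23684199-23692908) had 3.79, 8.17 and 2.26 CPM in metastasis 5, 3 and 7, against 4.81, 4.64 and 11.1 CPM in primary 5, 7 and 8. Hist1h2bg (chr13:23571396-23572013) had 1.54, 5.72 and 1.02 CPM in metastasis 5, 3 and 7, against 2.87, 1.49 and 3.31 CPM in primary 5, 7 and 8. For these 2 genes metastasis 3 lay inside or above the primary range, and the groups overlapped. Hist1h2bq and Hist1h2br, which share 97.3% and 88.7% of their stretches with other genes, had log2 changes of -0.90 (SE 0.57) and -0.96 (SE 0.57), with overlapping groups.

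Among the members, the most abundant linker histone gene was not lower in metastasis than in primary lines. H1f0, a linker histone gene outside the clusters and not a member, had a higher mean level (1421 CPM). Its log2 change of metastasis against primary lines was -0.25 (SE 0.37). Hist1h1c (ENSMUSG00000036181.2, chr13:23738808-23740367), which encodes the H1.2 variant, had the highest level of all members, 21.1 CPM per kilobase of exon on average, ahead of Hist1h2bc with 5.98 and Hist1h2bg with 5.36 CPM per kilobase. Its level was 28.8, 47.9 and 12.2 CPM in metastasis 5, 3 and 7, 90.6, 28.7 and 25.5 CPM in CTC 1, 3 and 6, 25.5, 13.4 and 38.4 CPM in primary 5, 7 and 8, and 18.1 CPM in the parental line. CTC 1 stood apart at the top and the 3 groups overlapped. The log2 change of metastasis against primary lines was 0.20 (SE 0.65, edgeR quasi-likelihood adjusted p 0.936). Hist1h1d (chr13:23553262-23560686), the gene of H1.3, had 0.195, 1.43 and 0.0818 CPM in metastasis 5, 3 and 7, 4.61, 3.02 and 2.18 CPM in CTC 1, 3 and 6, 2.77, 0.211 and 1.00 CPM in primary 5, 7 and 8, and 0.623 CPM in the parental line. Its highest library was 56.4 times its lowest, and here the CTC lines lay above the metastasis lines without overlap while primary lines spanned both.

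**Figure D3:**
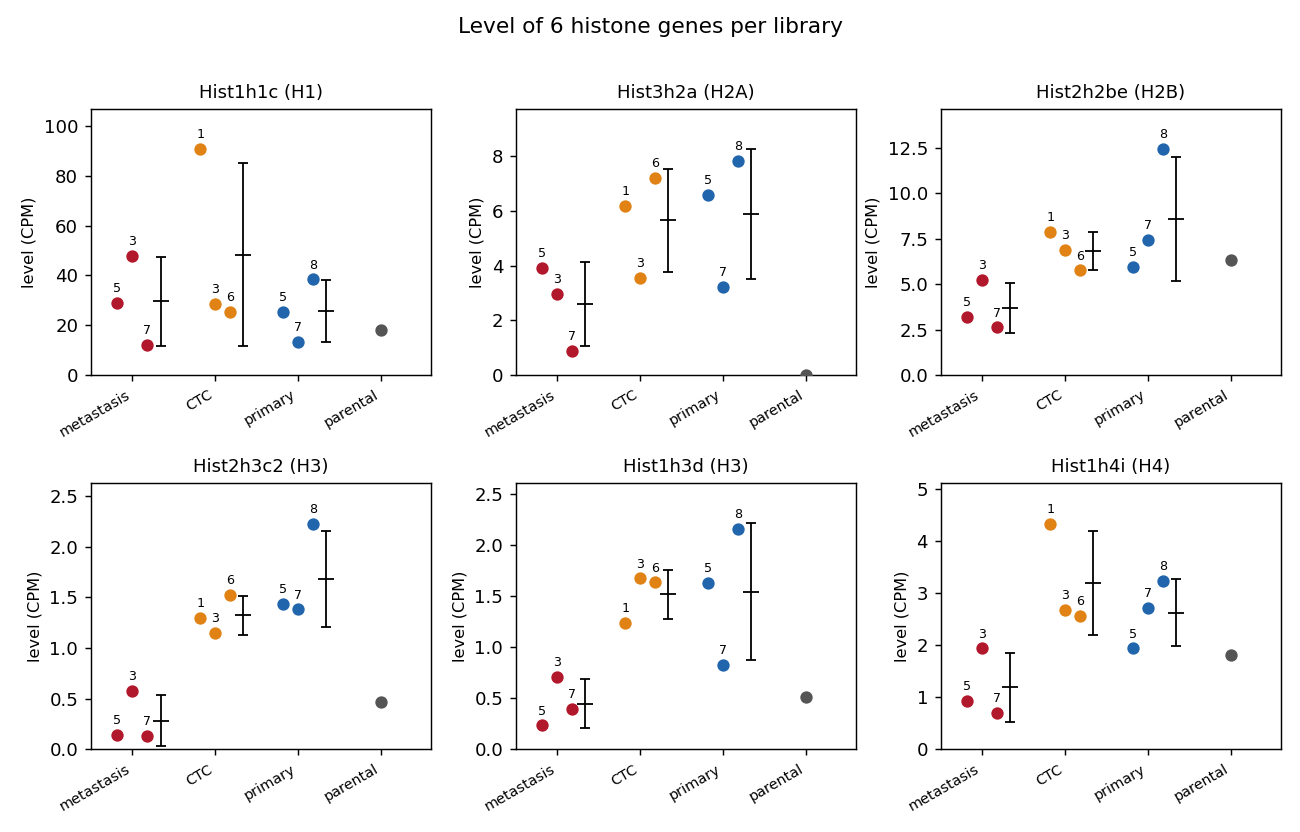
Level in CPM (vertical axes, from 0) of 6 members by group; a point is a library with its line number, and the bar beside each derived group is its mean ± SD (n = 3). The metastasis points of Hist2h3c2, Hist1h3d and Hist2h2be lie below all CTC and primary points, Hist1h1c shows no such order, and Hist3h2a is near 0 in the parental library.

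Against lines of circulating tumour cells, the metastasis lines were lower in all 60 tested members, where 49.6% of all genes tested were lower. At an unadjusted p under 0.05, 40 members were lower (66.7%), against 1.69% of all genes tested, and in 42 members the groups did not overlap, against 3.85%. The median log2 change was -1.65, against 0.00 over all genes, and -1.66 for H1, -1.59 for H2A, -1.39 for H2B, -1.75 for H3 and -2.12 for H4. Counts at an unadjusted p under 0.05 were 1 of 4 for H1, 9 of 17 for H2A, 8 of 15 for H2B, 10 of 11 for H3 and 12 of 13 for H4. With adjustment, edgeR's quasi-likelihood test called 0 members and 0.00502% of all genes tested, and limma-voom called 0 members and 1 of 19936 genes. DESeq2 called 4 of 58 members (Hist1h2ak, Hist1h3h, Hist1h4d and Hist4h4), against 0.153% of all genes. Hist4h4 had a log2 change of -2.60 (SE 0.56) and Hist1h4d of -2.70 (SE 0.50), each with an edgeR quasi-likelihood adjusted p of 1.

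This comparison shares the metastasis libraries with the comparison above, so the 2 are not independent. Its edgeR count was 25 without CTC 1, 20 without metastasis 5 and 22 without metastasis 7, again with no share of all genes beside it. The line number was also used as a fixed replicate block, which leaves 1 residual degree of freedom. These groups share number 3 alone, so that fit compares them through metastasis 3 and CTC 3 only. There 2 of 58 members had an unadjusted p under 0.05 in edgeR's quasi-likelihood test, and the median log2 change was -0.90. With the number as a random block in limma-voom the count was 43. Neither count has a share of all genes beside it.

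**Figure D4:**
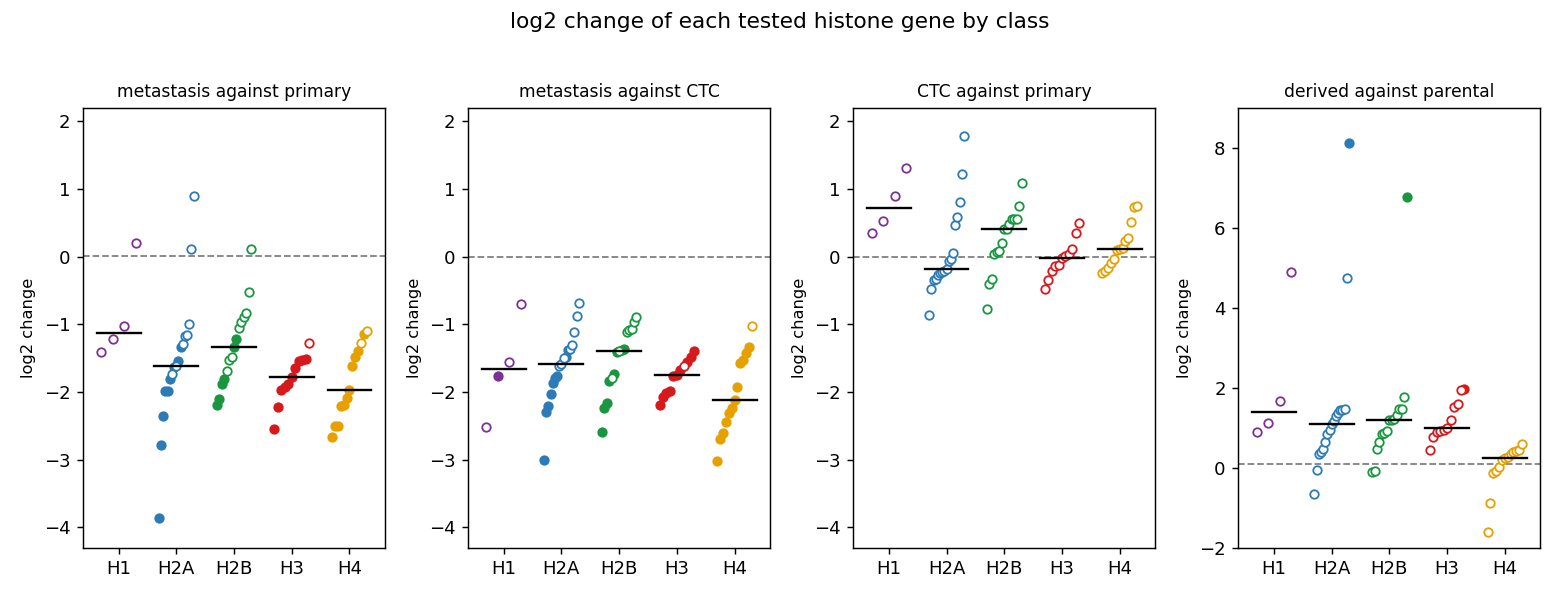
log2 change (vertical axes; the last panel has a wider scale) of each tested member by class in the 4 comparisons, the group named first over the other; filled points have an unadjusted p under 0.05 in edgeR's quasi-likelihood test, black bars are class medians, and the dashed line is the median of all genes tested. In both metastasis comparisons nearly all points lie below the dashed line, and in CTC against primary they lie on both sides of it.

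CTC and primary lines showed no common direction. In CTC lines 35 of 60 members were higher than in primary lines, where 49.1% of all genes tested were higher, and the median log2 change was 0.07, against -0.01 over all genes. The groups did not overlap in 3 members that were higher in CTC lines (Hist1h2af, Hist1h3h and Hist1h4j, 5.0% of the members, against 3.13% of all genes tested) and in 1 that was lower (Hist1h2ak, against 4.02%). At an unadjusted p under 0.05 there were 0 members, against 4.06% of all genes tested. With adjustment edgeR's quasi-likelihood test called 0 members and 0.0% of all genes. DESeq2 called 0 members and 66 of 19433 genes, and limma-voom called 0 members and 0 of 19936 genes. CTC and primary lines share no line number; with the number as a fixed replicate block, where they meet through the metastasis lines alone, the median turned to -1.06.

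The separation was carried mainly by metastasis 5 and 7. For each library the log2 level of each tested member was set against its mean over the 10 libraries, and the median deviation was -1.45, -0.07 and -1.19 in metastasis 5, 3 and 7, 0.75, 0.62 and 0.62 in CTC 1, 3 and 6, 0.72, 0.13 and 0.81 in primary 5, 7 and 8, and -0.61 in the parental line. Metastasis 5 was the lowest library for 35 of 60 members and metastasis 7 for 17. Metastasis 7 was among the lowest 3 libraries for 58 members, metastasis 5 for 55, the parental line for 38 and metastasis 3 for 19. Without metastasis 3 the median log2 change was -2.29 against primary and -2.46 against CTC lines. Primary 8 was the highest library for 21 members and CTC 1 for 15.

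Members were then grouped by position. The Hist1 cluster falls into 2 stretches. The 27 tested genes in chr13:23531050-23934851 had a median log2 change of -1.62 in metastasis against CTC lines, and the 24 in chr13:21715763-22043676 of -1.76. The 6 tested Hist2 genes had a median of -1.20, Hist3h2a -1.12 and Hist4h4 -2.60. Members were also grouped by annotated 3′ end. The 20 tested genes that end within 100 bases of the stem-loop had a median of -1.78 and the 20 that run over 100 bases past it of -1.62. The 6 with no stem-loop found had -1.37. In metastasis against primary lines these medians were -1.84, -1.55 and -1.09. The differences between these groups of members were not tested.

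Genes of DNA replication and of mitosis were set beside the histones. In a list of 22 S phase and replication genes, all 22 were lower in metastasis than in primary lines, 7 of them at an unadjusted p under 0.05 (median log2 change -0.95), and all 22 were lower than in CTC lines, 0 of them at that p (median -0.78). In a list of 16 genes of G2 and mitosis all 16 were lower in both comparisons, 11 of them at an unadjusted p under 0.05 in each (medians -1.18 against primary and -1.20 against CTC lines). After adjustment edgeR's quasi-likelihood test called 0 genes of either list. Rrm1, the large subunit of ribonucleotide reductase, had 56.4, 169 and 176 CPM in metastasis 5, 3 and 7 and 207.5, 364 and 374 CPM in primary 5, 7 and 8. Aurka, a mitotic kinase, had 26.5, 67.8 and 69.2 CPM in metastasis 5, 3 and 7 and 131, 152 and 164 CPM in primary 5, 7 and 8.

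The S phase list did not order the libraries as the histones did. Its median deviation was -1.78, 0.08 and -0.38 in metastasis 5, 3 and 7, 0.43, 0.52 and -0.36 in CTC 1, 3 and 6, 0.03, 0.76 and 0.27 in primary 5, 7 and 8, and 0.37 in the parental line. Metastasis 5 was lowest for both. Metastasis 7 and CTC 6 were near each other for S phase genes (-0.38 and -0.36), while the histone medians of these libraries were -1.19 and 0.62. In the parental line the S phase median was above 0 and the histone median was -0.61, beside a G2 and mitosis median of -0.85. The G2 and mitosis median was -1.71, 0.17 and -0.76 in metastasis 5, 3 and 7. It was 0.76, 0.71 and 0.05 in CTC 1, 3 and 6, and 0.55, 0.91 and 0.2 in primary 5, 7 and 8. For that list metastasis 7 and CTC 6 lay further apart than for S phase genes. In such bulk RNA, fewer cells in S phase and less histone mRNA per cell cannot be told apart, and the part of either was not tested.

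**Figure D5:**
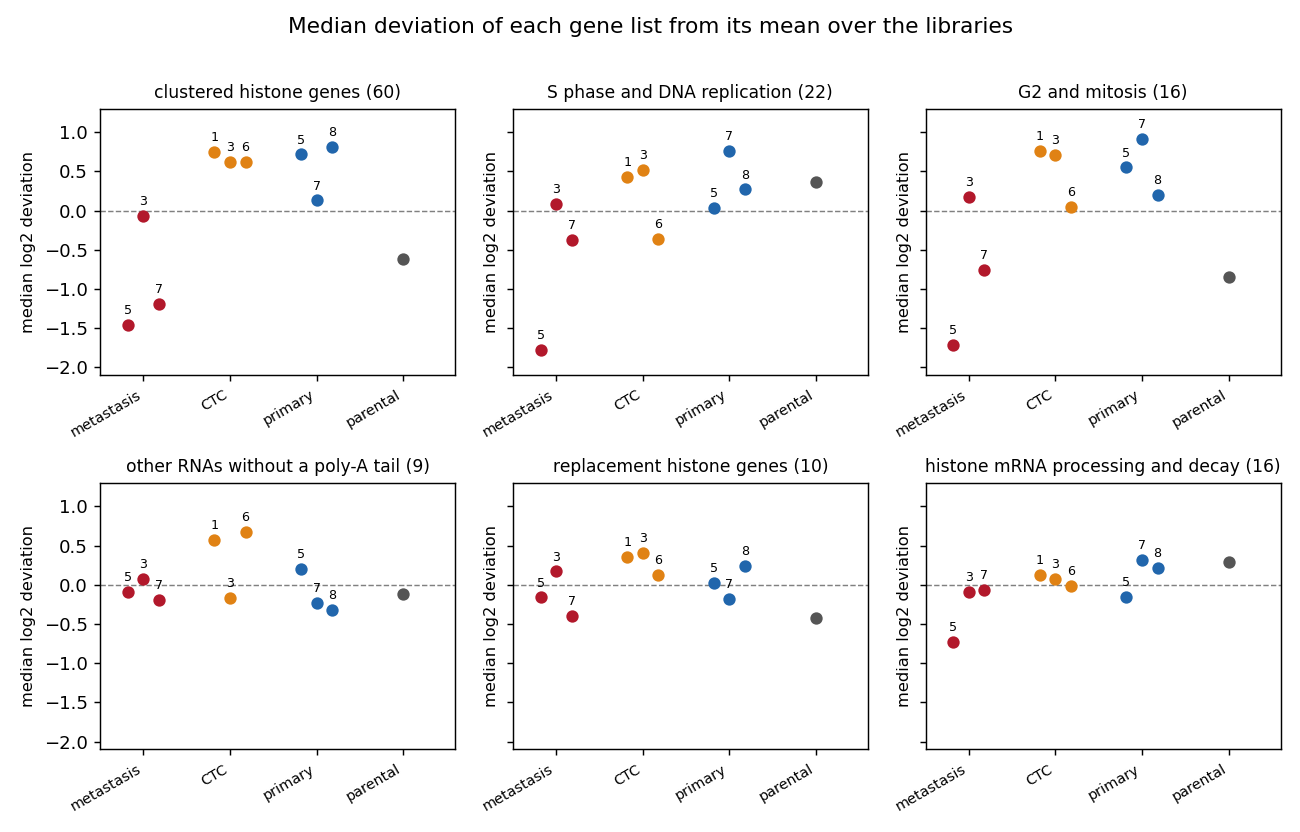
Median over the genes of a list of the log2 deviation from the mean of each gene over the libraries (vertical axes, shared scale), by group; a point is a library with its line number and the number in brackets is how many tested genes a list holds. Metastasis 5 is the lowest library for histone, S phase and mitosis genes, while metastasis 7 and CTC 6 are close for S phase genes and far apart for histone genes.

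Genes that make, process and chaperone histone mRNA and protein had smaller median changes. Of 16 tested genes of histone mRNA processing and decay, 14 were lower in metastasis than in CTC lines and 1 had an unadjusted p under 0.05 (median log2 change -0.26). That gene was Lsm11, a part of the U7 complex, with 10.2, 19.1 and 14.6 CPM in metastasis 5, 3 and 7, 25.8, 23.6 and 23.8 CPM in CTC 1, 3 and 6, and 24.1, 26.0 and 29.2 CPM in primary 5, 7 and 8. The metastasis lines lay below the other groups. Slbp, the stem-loop binding protein, had 37.3, 85.1 and 52.5 CPM in metastasis 5, 3 and 7, 106.8, 125 and 36.3 CPM in CTC 1, 3 and 6, and 52.9, 114 and 50.8 CPM in primary 5, 7 and 8, so the groups overlapped.

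A list of 11 genes covered histone transcription, its regulators and the histone locus body, where histone genes are transcribed. Of these, 9 were lower in metastasis than in CTC lines and 0 had an unadjusted p under 0.05 (median -0.27). Npat, the cyclin E-Cdk2 target that switches on histone transcription, had 38.4, 30.9 and 56.4 CPM in metastasis 5, 3 and 7, 54.0, 47.2 and 53.3 CPM in CTC 1, 3 and 6, and 33.1, 47.7 and 33.0 CPM in primary 5, 7 and 8. Of 14 histone chaperones 9 were lower and 2 had an unadjusted p under 0.05 (median -0.17). They were Asf1b, an H3-H4 chaperone, with a log2 change of -1.06 (SE 0.45), and Nap1l1, an H2A-H2B chaperone, with -0.58 (SE 0.26), each with an edgeR quasi-likelihood adjusted p of 1.

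Replacement histones, whose genes lie outside the clusters and mostly give polyadenylated mRNAs, were lower in 9 of 10 cases in metastasis against CTC lines (median -0.51). An unadjusted p under 0.05 was found for Cenpa, the centromeric H3, and for H2afy, the gene of macroH2A1. Cenpa had 21.3, 105 and 24.5 CPM in metastasis 5, 3 and 7, 131, 170.2 and 124 CPM in CTC 1, 3 and 6, and 99.98, 118 and 93.0 CPM in primary 5, 7 and 8. H3f3b, a gene of the H3.3 variant used outside S phase, had 703, 678 and 565 CPM in metastasis 5, 3 and 7, 1028, 629 and 811.5 CPM in CTC 1, 3 and 6, and 608, 550.4 and 1224 CPM in primary 5, 7 and 8. H3f3b overlapped between groups.

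Other RNAs that lack a poly-A tail bear on how each library was made. Of 9 tested, 5 were lower and 4 higher in metastasis than in CTC lines (median -0.57), and against primary lines 2 were lower and 7 higher (median 0.46). Rn7sk, a small nuclear RNA that restrains transcription elongation, had 18.8, 19.9 and 17.5 CPM in metastasis 5, 3 and 7, 37.96, 42.5 and 50.7 CPM in CTC 1, 3 and 6, and 20.3, 11.8 and 21.2 CPM in primary 5, 7 and 8. Rmrp had 3.37, 2.76 and 3.75 CPM in metastasis, 8.16, 7.43 and 16.8 CPM in CTC and 6.09, 3.03 and 5.06 CPM in primary lines, in the same order. Both were higher in each CTC line than in each metastasis and primary line, and with the histones they were lower in metastasis than in CTC lines. The summed level of the 11 such RNAs listed overlapped between groups. It was 777.1, 396.7 and 355.6 CPM in metastasis, 456.7, 354.3 and 464.0 CPM in CTC and 510.2, 320.2 and 242.7 CPM in primary lines, in the same order. Against primary lines Rn7sk had a log2 change of 0.07 (SE 0.29) in metastasis lines. The part of library making in the histone levels was not tested.

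The 9 derived lines were set as a whole against the parental line. By the fitted log2 change, 52 of 60 members were higher in derived lines, where 53.9% of all genes tested were higher. The median log2 change was 0.90, against 0.10 over all genes. It was 1.39 for H1, 1.10 for H2A, 1.19 for H2B, 0.99 for H3 and 0.25 for H4. With 3 members that had 0 parental counts set at their bound the median was 0.87. All 9 derived lines lay above the parental line in 4 members, against 14.1% of all genes tested, and 3 members were higher at an unadjusted p under 0.05, against 5.87%. With adjustment edgeR's quasi-likelihood test called 0 members and 0.0201% of all genes tested, and limma-voom called 0 members and 24 of 19936 genes. DESeq2 called 1 of 56 members, Hist3h2a, against 4.32% of all genes. The parental line is 1 library that was assumed to vary like the others, and shares near or below the background say nothing of the members in particular.

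Hist3h2a (ENSMUSG00000078851.4, chr11:58954685-58956830, plus strand), an H2A gene outside the large clusters, had 1 count in the parental library, or 0.0142 CPM. It had 3.92, 2.99 and 0.900 CPM in metastasis 5, 3 and 7, 6.20, 3.56 and 7.21 CPM in CTC 1, 3 and 6, and 6.59, 3.22 and 7.82 CPM in primary 5, 7 and 8, from 66 to 569 counts. All 9 derived lines lay far above the parental line, with a ratio of means of 333 (95% exact Poisson interval of the parental count 59.7 to 13140, which covers counting error only). The fitted log2 change was 8.12 (SE 1.42), with an adjusted p of 0.234 in edgeR's quasi-likelihood test. DESeq2 gave 8.27 with an adjusted p of 9.8e-05. Between derived groups the log2 change was -1.18 (SE 0.59) in metastasis against primary and -1.12 (SE 0.59) in metastasis against CTC lines.

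The exon of Hist3h2a overlaps Trim17 and Gm44313, and reads of overlapping genes may be shared among them. Trim17 had 0.0533 to 0.855 CPM in the derived lines and 0.241 CPM in the parental line, and Gm44313 was listed at 0 in each library. Its neighbour Trim11 had 15.3 to 23.4 CPM in the derived lines and 33.4 CPM in the parental line, and Rnf187 had 133 to 341 CPM and 289.9 CPM. These neighbours were present in the parental library at levels within or above the derived range. Hist1h2bm, chosen after its values were seen, had 0 counts in the parental library, which allows up to 0.0425 CPM from 3 counts, and 0.0390 to 0.432 CPM in the derived lines, so that the derived mean was at least 5.03-fold higher.

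Another 9 members were not tested for low counts. Hist2h2aa1 and Hist2h2aa2, near-identical copies, were listed at 0 in each library. Hist1h1a and Hist1h2aa had 2 counts each over the 10 libraries, Hist2h2bb 6, Hist3h2ba 10, Hist1h1t 12, Hist2h3b 12 and Hist1h2ba 14. Hist1h1t, Hist1h2aa and Hist1h2ba are known as the testis-specific H1, H2A and H2B genes.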

How the data were processed

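RNA was sequenced in 10 libraries on an Illumina HiSeq system with paired ends, per the labels' protocols. The deposited gene table holds estimated counts as whole numbers; per the submitters' processing notes HISAT2 2.1.0, StringTie 2.0.3 and DESeq2 1.26.0 were used on GRCm38. Which step each tool did, the annotation release and the use of strand are not given in the sources used here. Of 72544 entries, the 17126 assembled transcripts with no gene name (19.7% to 22.8% of counts) were left out, so 55418 named genes entered.

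CPM were computed from the deposited estimated counts with TMM factors and are not divided by gene length. Tests used edgeR 4.0.16 (R 4.3.3) on the rounded counts: quasi-likelihood, filterByExpr, 1 fit of all 10 libraries in 4 groups, Benjamini-Hochberg adjustment over 19936 genes at 0.05. SE is the absolute log2 change over the square root of F. The common biological coefficient of variation was 0.606. Scripts were tested on simulated data. Alternatives used limma 3.58.1 (voom), DESeq2 1.42.0, other scalings and filters, all entries, replicate blocks and leaving out each derived line. Line numbers recur between groups. The deviations of the 3 same-number pairs correlated at 0.319, 0.12 and 0.406, against a median of -0.0493 for other pairs. Among other pairs, CTC 6 with metastasis 7 reached 0.506 and primary 8 with CTC 6 reached 0.43. With the number as a random block, limma-voom estimated a consensus correlation of 0.484 within numbers. The values thus do not settle whether lines with the same number are related. The main fit treated all lines as independent, and lines with the same number were taken as paired in alternative fits only. Named genes were the 3 with the highest mean level per class, the 5 with the smallest p per comparison and those whose highest library was over 10 times the lowest, all with a mean of at least 1 CPM; from other lists, up to 4 genes by p. The members and lists were chosen with earlier results of these data known. Positions and transcripts are from GENCODE M21. Low levels limit precision: the median tested member had 0.587 CPM, so many values rest on few counts.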

Additional observations from a re-analysis of the deposited data

How the results depend on the processing

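In metastasis against primary lines the 36 members at an unadjusted p under 0.05 became 11 with a filter of at least 1 CPM in 3 libraries (22 members tested) and 15 among the 28 members with under 50% of their 50-base stretches in other genes, an alternative chosen after seeing the data. In metastasis against CTC lines the 40 became 13 and 17 under these settings, and 2 of 58 with the number as a fixed replicate block. In both cases fewer members were counted by construction, except under the block. The median log2 change under the fixed replicate block was -2.16 in metastasis against primary, -0.90 in metastasis against CTC and -1.06 in CTC against primary lines; the random block changed no count by over 1.5 times. Derived against parental, the 3 became 1 with the 1 CPM filter.

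Leaving out each derived line gave 21 to 47 members in metastasis against primary, 20 to 50 in metastasis against CTC, 0 in CTC against primary and 3 to 5 (5 without metastasis 5) in derived against parental. These counts have no share of all genes beside them. The medians ran from -2.29 to -1.24, -2.46 to -1.34, -0.07 to 0.17 and 0.65 to 1.00 in the same order, and the log2 ratios of summed CPM from -1.28 to -0.40, -1.67 to -0.74, 0.02 to 0.67 and 0.68 to 0.99. By class the log2 ratio of sums, -0.72 for all members in metastasis against primary, was 0.13 for H1, -1.86 for H3 and -1.59 for H4; against CTC lines, -1.11 for all, it was -1.79 for H3 and -1.82 for H4. Under the fixed block the log2 change of CTC against primary lines turned negative for Hist1h2al (-0.09), Hist1h2bg (-1.41), Hist1h1c (-0.70), Hist1h1d (-1.64) and Hist1h2bc (-0.25). This block compared CTC with primary lines only through the metastasis lines. Metastasis 3 was set against CTC 3, and metastasis 5 and 7 against primary 5 and 7. The cause of the other differences was not tested. DESeq2 brought Hist2h3c2 (-2.56) and Hist3h2a (8.27) past the threshold. Levels under 1 CPM limit what single members can show.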

Other observations

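Estimated counts of Hist1h2be moved between 2 of its annotated transcripts. The transcript of 2506 bases held 0, 0 and 0 counts in metastasis 5, 3 and 7, 152, 0 and 0 in CTC 1, 3 and 6, 374, 0 and 203 in primary 5, 7 and 8, and 219 in the parental line. The transcript of 2480 bases held 90, 202 and 63 counts in metastasis, 253, 174 and 97 in CTC, 0, 60 and 334 in primary lines, in the same order, and 0 in the parental line. A library often had counts on the one and none on the other, and Hist1h2be also shares exon bases with Hist1h1e. Hist2h4 ran against most members in the parental comparison, with 1.28 CPM in the parental line and 0.118 to 1.05 CPM in the derived lines. Both genes were chosen after their values were seen.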
